A study of Mus musculus with 10 samples.

Results

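The circadian clock genes described here are Arntl, Clock, Per1, Per2, Per3, Cry1, Cry2, Nr1d1, Nr1d2 and Dbp, chosen by symbol: every probe set whose only gene symbol on the platform is one of these names. Each of the 10 genes had exactly 1 such probe set, so 10 of the 35556 probe sets on the array and 10 of the 19938 genes with a symbol of their own are members. The arrays hold RNA of whole melanoma tumours from male mice, 5 from an exercise group and 5 from a non-exercise group, and the series title calls the exercise voluntary. The strain, age, tumour line, length of exercise and hour at which a tumour was taken are not stated in the labels. Each sample was measured once, so the values are levels and carry no amplitude or phase of a rhythm. Nothing says whether array numbers stand for separate animals, and the p-values therefore measure only the spread between samples, which may be technical.

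The circadian clock is a loop of transcription with a period of about a day. CLOCK and its partner BMAL1, encoded by Arntl, bind E-box sequences and switch on the Per and Cry genes, whose proteins gather, enter the nucleus and block CLOCK and BMAL1 until they are degraded. The same pair switches on Nr1d1 and Nr1d2, which encode the receptors REV-ERB alpha and beta that repress Arntl through the element they share with ROR receptors, and Dbp, which encodes a transcription factor that carries the rhythm to other genes through D-box sequences. In most tissues Arntl therefore peaks at the opposite time of day from Nr1d1 and Dbp.

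The stretches printed here show where the letters of these elements stand near the start sites of 6 clock genes and of 2 related genes, Tef and Ciart. Of these, Nr1d1, Dbp and Tef fell, and Ciart was called lower on 1 of its 2 probe sets. The sequences are from RefSeq, whose table of windows of 300 bases around start sites held 9 of the 10 clock genes (all but Per2). Only bases outside the annotated gene are shown, except for Per1 and Arntl, whose windows lie inside their genes and which are shown as each match with 10 bases on either side. Capitals mark matches on either strand to the E-box CACGTG, the D-box TTATGTAA or TTATGCAA, the REV-ERB and ROR core TAGGTCA or TGGGTCA, and the cAMP response element TGACGTCA.
Nr1d1 (GRCm38.p6, chr11:98775378-98775627, minus strand): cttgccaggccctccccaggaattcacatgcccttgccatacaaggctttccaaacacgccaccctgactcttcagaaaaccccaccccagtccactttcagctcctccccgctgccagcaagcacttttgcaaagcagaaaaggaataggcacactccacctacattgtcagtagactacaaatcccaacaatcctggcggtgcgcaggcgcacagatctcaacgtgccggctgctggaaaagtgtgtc
Dbp (GRCm38.p6, chr7:45704997-45705099, plus strand): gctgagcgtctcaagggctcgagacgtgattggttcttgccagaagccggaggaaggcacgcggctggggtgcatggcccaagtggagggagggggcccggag
Tef (GRCm38.p6, chr15:81802423-81802672, plus strand): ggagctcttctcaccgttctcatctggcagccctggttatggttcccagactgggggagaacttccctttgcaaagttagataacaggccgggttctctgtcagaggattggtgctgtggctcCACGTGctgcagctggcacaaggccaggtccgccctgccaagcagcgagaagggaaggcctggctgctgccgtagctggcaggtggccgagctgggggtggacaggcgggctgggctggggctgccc
Ciart (GRCm38.p6, chr3:95882258-95882478, minus strand): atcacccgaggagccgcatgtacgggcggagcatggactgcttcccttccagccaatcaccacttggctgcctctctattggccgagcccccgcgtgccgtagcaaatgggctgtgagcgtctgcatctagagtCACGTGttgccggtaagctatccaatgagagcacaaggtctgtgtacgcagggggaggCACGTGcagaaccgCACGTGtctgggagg
Cry1 (GRCm38.p6, chr10:85185055-85185304, minus strand): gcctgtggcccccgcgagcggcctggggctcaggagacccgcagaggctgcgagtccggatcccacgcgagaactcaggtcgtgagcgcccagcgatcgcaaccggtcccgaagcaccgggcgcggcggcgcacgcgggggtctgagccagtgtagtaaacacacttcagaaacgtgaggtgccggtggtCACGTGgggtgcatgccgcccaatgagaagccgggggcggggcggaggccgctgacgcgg
Per3 (GRCm38.p6, chr4:151044708-151044915, minus strand): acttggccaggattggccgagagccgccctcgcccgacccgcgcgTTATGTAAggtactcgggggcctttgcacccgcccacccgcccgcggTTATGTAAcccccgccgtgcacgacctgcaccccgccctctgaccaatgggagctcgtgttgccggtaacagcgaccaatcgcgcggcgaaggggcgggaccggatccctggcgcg
Per1 E-box (GRCm38.p6, chr11:69098773-69098798, plus strand): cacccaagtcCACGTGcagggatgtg
Per1 D-box (GRCm38.p6, chr11:69098915-69098942, plus strand): gggcctggcaTTATGCAAcccgcctccc
Arntl REV-ERB and ROR core (GRCm38.p6, chr7:113207531-113207557, plus strand): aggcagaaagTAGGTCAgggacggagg
Ciart held 3 E-boxes in its stretch and Tef, Cry1 and Per1 held 1 each. Another window of Tef, inside the gene and not printed, also held 1. Per3 held 2 D-boxes and Per1 held 1. The 9 clock genes had 13 windows. An E-box stood in 2 of these 13 windows and in 7.15% of all 32851 windows, a D-box in 2 and in 1.66%, the REV-ERB and ROR core in 1 (of Arntl) and in 6.45%, and the cAMP response element in 0 and in 1.79%. No marked matches overlapped. The windows of Nr1d1 and Dbp held none of these letters, which describes these windows only.

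Of the 10 clock genes, 2 fell in the exercise tumours and none rose. These were Nr1d1 and Dbp, by 1.29-fold and 1.36-fold, while the other 8 did not pass a limma adjusted p of 0.05. By limma adjusted p, 17.0% of all 19938 genes passed, 6.35% as higher and 10.6% as lower in exercise. The share called among the clock genes by that test, 2 of 10, was near that of all genes. By unadjusted exact permutation p under 0.05, 3 clock genes were lower and 1 was higher. The permutation test was not run over all genes, so these counts have no share of all genes to be set against. With arrays centred on their medians, 938 genes rose and 3076 fell, against 1266 and 2118 with quantile normalization, and the clock genes that fell were Arntl, Nr1d1 and Dbp. The log2 change, exercise minus non-exercise, was negative for 8 of the 10 and for 57.1% of all genes, with a median of -0.11 against -0.02 over all genes. For 2 clock genes, Nr1d1 and Arntl, the highest exercise value was below the lowest non-exercise value, as it was for 8.33% of all genes. The reverse held for none of the clock genes and for 3.74% of all genes. In whole-tumour RNA, fewer cells of a type and less RNA per cell cannot be told apart.

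**Figure D1:**
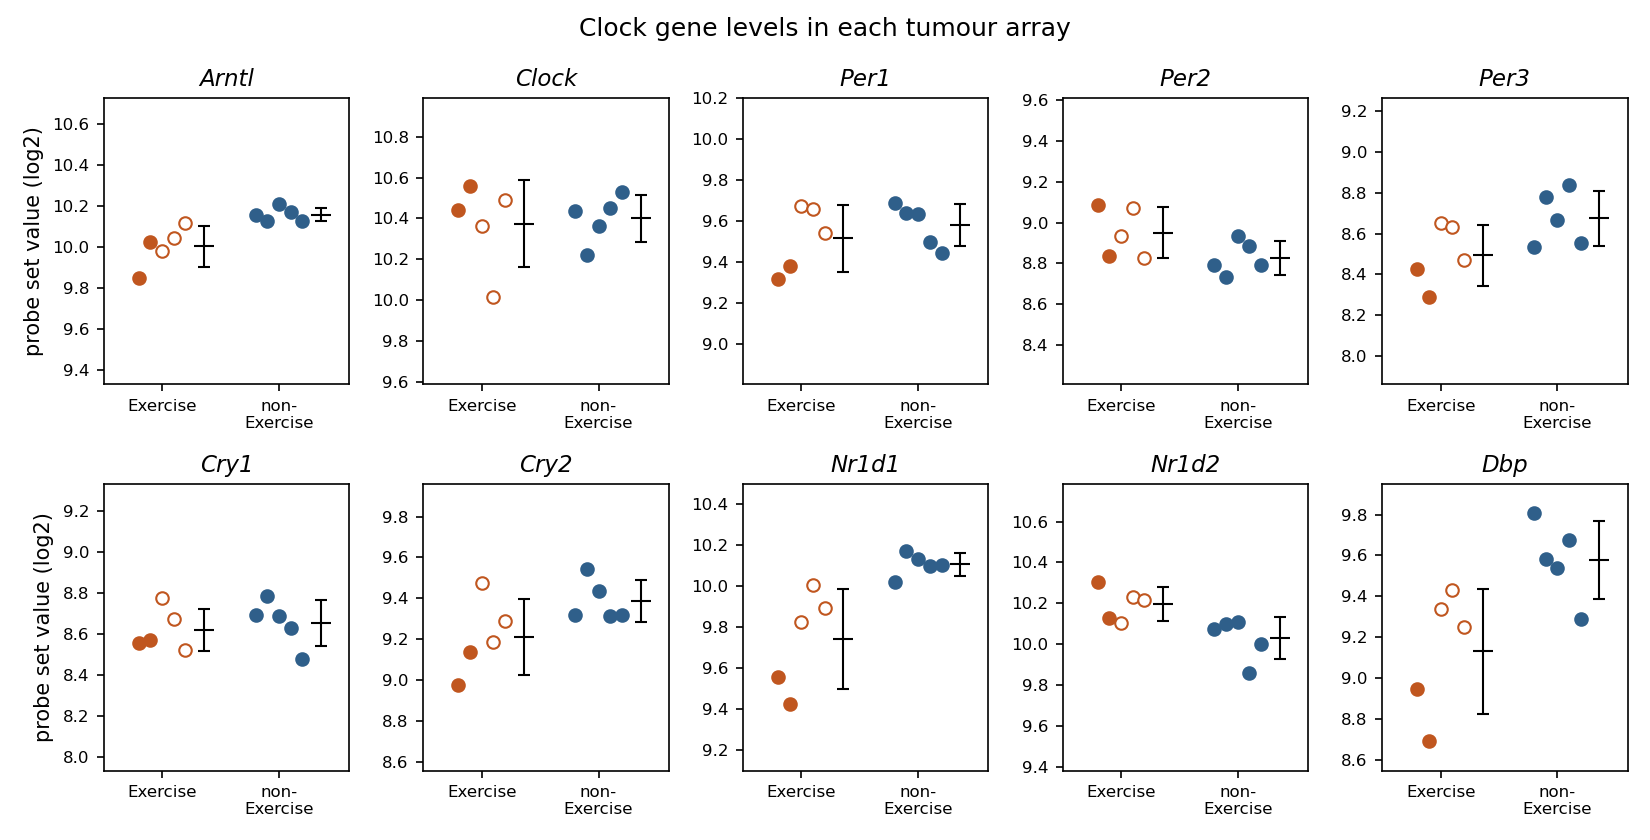
Probe set value (log2) of each of the 10 clock genes in each array. Each point is 1 array, and open points are exercise arrays 306, 309 and 310. The bars are the mean and SD of each group (n = 5). Every panel spans the same range of 1.4 log2 units; the exercise points of Nr1d1 lie below all its non-exercise points, and the lowest points of Nr1d1 and Dbp are exercise arrays 300 and 301.

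Before the single genes, 3 arrays need describing. Exercise arrays 306, 309 and 310 held transcripts of hepatocytes, with the mean of 14 hepatocyte markers at 9.39 to 9.92 against 7.60 and 7.72 in the other 2 exercise arrays and 7.65 to 7.95 in the non-exercise arrays. Between the groups 3 of the 14 passed, as higher, and 11 did not. Not every marker was high in the 3 arrays, as Fga had a mean of 7.77 there and 7.69 in non-exercise arrays. Cyp2e1 in exercise array 300 (8.50) exceeded its highest non-exercise value (8.06). Markers of leukocytes (8 of 10 rose, none fell) and of fibroblasts (5 of 7 rose, none fell) were also higher in the exercise group. The leukocyte mean lay between 9.46 and 10.81 in exercise arrays and between 9.09 and 9.49 in non-exercise arrays, and the fibroblast mean between 10.23 and 11.58 and between 9.60 and 10.43. Melanocytic genes such as Tyr, Dct and Pmel, which mark the tumour cells, had a mean of 12.73 to 12.87 in exercise and 12.75 to 12.89 in non-exercise arrays, and 0 of 9 passed. Of the other lists 1 of 6 adipocyte markers rose, and none of 8 skeletal muscle, 7 keratinocyte and 6 endothelial markers passed. Single arrays still differed widely. The skeletal muscle mean was 9.25, 7.54, 9.82, 10.19 and 7.51 in exercise arrays 300, 301, 306, 309 and 310, against 8.06 to 8.87 in non-exercise arrays. The adipocyte mean was 9.42, 7.89, 8.38, 9.11 and 10.14 in the same exercise arrays, against 7.83 to 9.13 in non-exercise arrays. The part of liver, leukocyte, fibroblast, muscle and adipocyte RNA in the values of the clock genes was not tested. Values without the 3 arrays, a setting added after the values were known, are given for each clock gene. That fit sets only 2 exercise arrays, 300 and 301, against the 5 non-exercise arrays.

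Nr1d1, the gene of the repressor REV-ERB alpha, was lower in every exercise array than in any non-exercise array. Its values were 9.55, 9.42, 9.83, 10.01 and 9.89 in exercise arrays 300, 301, 306, 309 and 310, and 10.02, 10.17, 10.13, 10.10 and 10.10 in non-exercise arrays 326, 327, 329, 330 and 331. Arrays 300 and 301 were far below the rest, and array 309 lay just under the lowest non-exercise array. The means were 9.74 ± 0.24 and 10.11 ± 0.06 (SD, n = 5 each), a log2 change of -0.37 ± 0.10 (SE; limma adjusted p = 0.0212; exact permutation p = 0.00794, two-sided, the lowest possible with 5 arrays against 5). The exercise arrays differed more among themselves than the non-exercise arrays did. Leaving out exercise array 300, or non-exercise array 327 or 329, ended the call (limma adjusted p 0.00846 to 0.0540 leaving out 1 array, with a log2 change of -0.43 to -0.29). Without the 3 arrays with hepatocyte transcripts the log2 change was -0.62 ± 0.08 (SE; limma adjusted p = 0.000765). That fit keeps only exercise arrays 300 and 301, the 2 lowest for Nr1d1, so its larger change follows from which arrays remain. Of the 2 lowest arrays for Nr1d1, array 301 had a leukocyte mean of 9.46, inside the range of the non-exercise arrays, and array 300 had 10.31, above it. Their fibroblast means, 10.52 and 11.19, both lay above the non-exercise range. So did those of exercise arrays 309 (11.08) and 310 (11.58), while array 306 (10.23) lay inside it.

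Nr1d2, the gene of the related repressor REV-ERB beta, did not pass. Its values were 10.30, 10.13, 10.10, 10.23 and 10.21 in the exercise arrays and lay between 9.86 and 10.11 in the non-exercise arrays. In the exercise group 4 values exceeded every non-exercise value, and array 306 fell inside their range. The log2 change was 0.17 ± 0.07 (SE; limma adjusted p = 0.110; unadjusted exact permutation p = 0.0159), with a 95% interval of 0.02 to 0.31 before any adjustment. With arrays centred on their medians the log2 change was 0.09, and without the 3 arrays it was 0.19.

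Dbp, the D-box activator whose transcript is a widely used readout of the clock, also fell. Its values were 8.95, 8.69, 9.34, 9.43 and 9.25 in exercise arrays 300, 301, 306, 309 and 310, and 9.81, 9.58, 9.54, 9.67 and 9.29 in non-exercise arrays 326 to 331. As for Nr1d1, arrays 300 and 301 were lowest, but here the groups overlapped, since non-exercise array 331 lay below exercise arrays 306 and 309. The means were 9.13 ± 0.31 and 9.58 ± 0.19 (SD, n = 5 each), a log2 change of -0.45 ± 0.13 (SE; limma adjusted p = 0.0349; exact permutation p = 0.0238). Leaving out array 300 or 301 of the exercise group, or 326, 327, 329 or 330 of the non-exercise group, ended the call (limma adjusted p 0.0196 to 0.0961 leaving out 1 array, with a log2 change of -0.52 to -0.34). Without the 3 arrays with hepatocyte transcripts the log2 change was -0.76 ± 0.13 (SE; limma adjusted p = 0.00283). This fit too keeps only exercise arrays 300 and 301, the 2 lowest for Dbp. The count of 2 clock genes became 0 on leaving out exercise array 300 (or 327 or 329 of the other group), 1 on leaving out exercise array 301 (or 326 or 330), and 3 without the 3 arrays. The counts over all 19938 genes moved too. They were 1177 higher and 1723 lower without array 300, and 750 higher and 1610 lower without the 3 arrays.

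**Figure D2:**
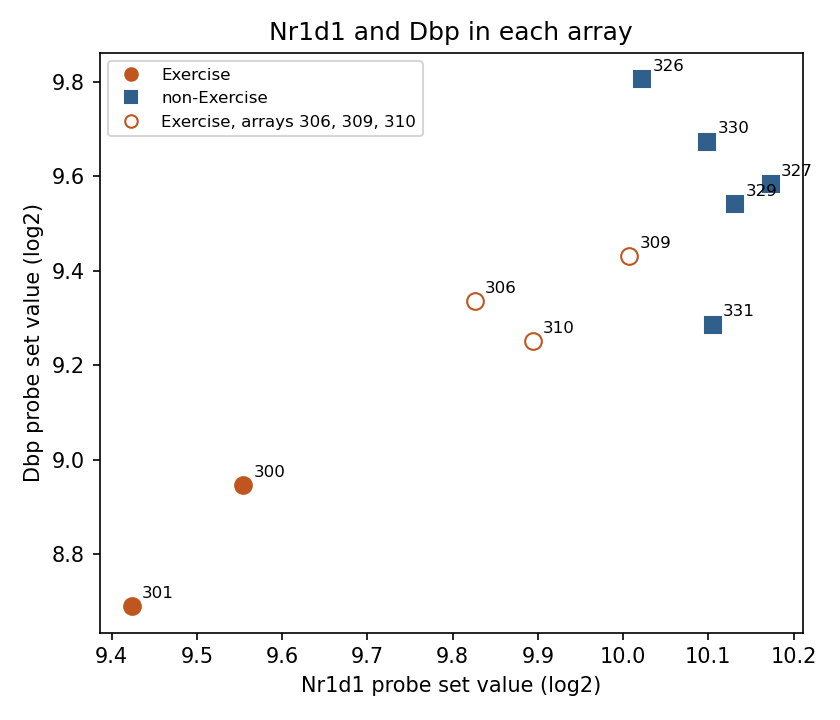
Dbp against Nr1d1, probe set value (log2) on both axes; each point is 1 array with its number, circles are exercise, squares are non-exercise, and open circles are exercise arrays 306, 309 and 310. Arrays 300 and 301 stand apart at the lower left, while the open circles lie between them and the non-exercise squares on the Nr1d1 axis.

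The activators showed smaller differences. Arntl, the gene of BMAL1, had values of 9.85, 10.02, 9.98, 10.04 and 10.12 in the exercise arrays and 10.16, 10.13, 10.21, 10.17 and 10.13 in the non-exercise arrays. The groups did not overlap, with exercise array 310 just below the lowest non-exercise array. The log2 change was -0.16 ± 0.06 (SE) and did not pass (limma adjusted p = 0.105; unadjusted exact permutation p = 0.00794). Arntl passed with arrays centred on their medians, at -0.22 (limma adjusted p = 0.0384), and with array weights, at -0.18 (limma adjusted p = 0.0406). Without the 3 arrays it was -0.22 (limma adjusted p = 0.0798). Clock, which encodes the partner of BMAL1, lay between 10.02 and 10.56 in exercise and between 10.22 and 10.53 in non-exercise arrays. Its log2 change was -0.03, with a 95% interval of -0.23 to 0.18, and it was 0.06 without exercise array 309, the lowest of all, and 0.10 without the 3 arrays, so its sign was not settled.

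None of the repressors of the Per and Cry families passed, and their changes were not all of one sign. Per1, which also responds to light and hormone signals, lay between 9.32 and 9.67 in exercise and between 9.45 and 9.69 in non-exercise arrays, a log2 change of -0.07 (95% interval -0.25 to 0.12). Leaving out 1 array moved it between -0.11 and -0.016, and without the 3 arrays it was -0.23 (limma adjusted p = 0.129). Per2 lay between 8.82 and 9.09 and between 8.73 and 8.94, a log2 change of 0.12 (95% interval -0.05 to 0.29), and 0.14 without the 3 arrays. Per3 had values of 8.43, 8.29, 8.65, 8.63 and 8.47 in exercise and 8.54, 8.78, 8.67, 8.84 and 8.55 in non-exercise arrays. For Per3, 3 exercise arrays lay below all non-exercise arrays, and the log2 change was -0.18 (95% interval -0.38 to 0.02; limma adjusted p = 0.222). Without the 3 arrays it was -0.32 (limma adjusted p = 0.0953).

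The Cry genes encode the cryptochromes, the strongest repressors of CLOCK and BMAL1. Cry1 lay between 8.52 and 8.77 in exercise and between 8.48 and 8.79 in non-exercise arrays, a log2 change of -0.03 (95% interval -0.21 to 0.14), and its sign turned in the table as deposited (0.02). Without the 3 arrays it was -0.09. Cry2 had values of 8.97, 9.14, 9.47, 9.19 and 9.29 in exercise and 9.32, 9.54, 9.44, 9.31 and 9.32 in non-exercise arrays. For Cry2, 4 exercise arrays lay below all non-exercise arrays while array 306 lay above 4 of them. The log2 change of Cry2 was -0.17 ± 0.09 (SE; limma adjusted p = 0.238), and without the 3 arrays it was -0.33 ± 0.10 (SE) and passed (limma adjusted p = 0.0473). The exercise arrays kept there, 300 and 301, were the lowest for Cry2.

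**Figure D3:**
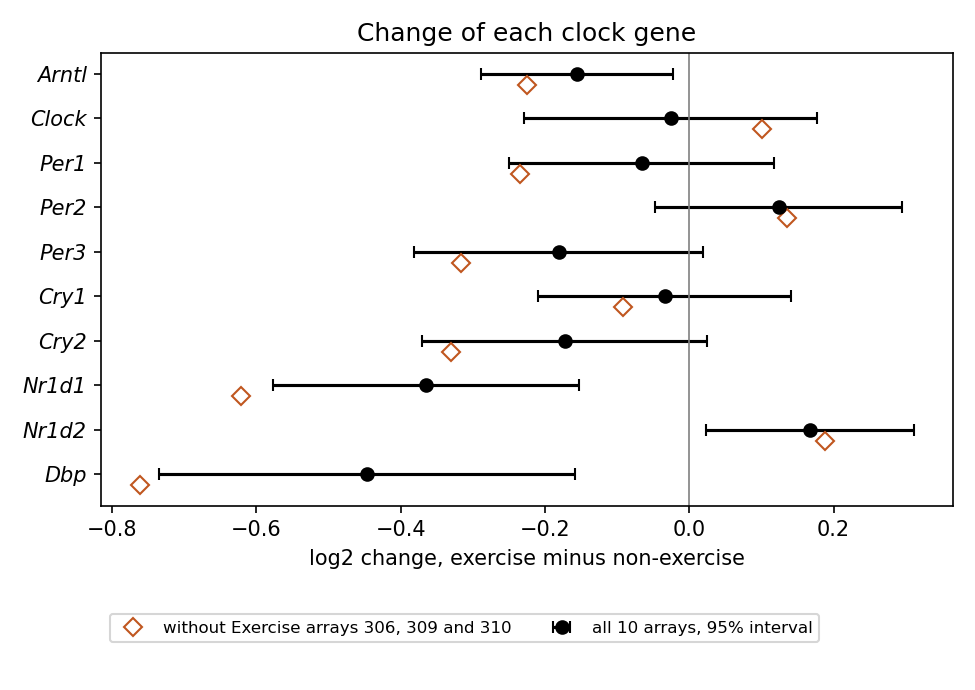
Log2 change of each clock gene, exercise minus non-exercise; filled points are the fit to all 10 arrays with its unadjusted 95% interval, and open diamonds are the change without exercise arrays 306, 309 and 310. All diamonds rest on exercise arrays 300 and 301 alone. The diamonds of Nr1d1 (-0.62) and Dbp (-0.76) lie below their filled points (-0.37 and -0.45), and that of Clock (0.10) lies on the other side of 0.

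The pairs of clock genes were compared across arrays within groups, after each group's mean was subtracted from its 5 arrays. Nr1d1 and Dbp, which share their activators, had Pearson r = 0.75 over 10 arrays (exact permutation p = 0.0503, two-sided; adjusted over 5 pairs p = 0.252) and Spearman rho = 0.62 (exact permutation p = 0.124; adjusted over 5 pairs p = 0.620). Taken alone, the 5 exercise arrays gave r = 0.97 and the 5 non-exercise arrays r = -0.47. Without arrays 300 and 301, the farthest from the median of Nr1d1, r was -0.14, so the relation rests on those 2 arrays. Arntl, which usually peaks opposite to Nr1d1 and Dbp, had r = 0.46 with Nr1d1 (exact permutation p = 0.423) and r = 0.32 with Dbp (exact permutation p = 0.528), with Spearman rho of 0.37 (exact permutation p = 0.377) and 0.27 (exact permutation p = 0.50). Per1 with Per2 and Arntl with Clock had r = -0.04 (exact permutation p = 0.925) and r = -0.07 (exact permutation p = 0.855), with Spearman rho of -0.02 (exact permutation p = 0.975) and -0.03 (exact permutation p = 0.953). Adjusted over 5 pairs, these 4 Pearson p were 0.880 to 0.925 and the Spearman p 0.833 to 0.975. Without the 2 arrays farthest from the median of the first gene r was 0.35, 0.39, 0.19 and 0.13 for these 4 pairs. No pair passed.

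Other parts of the clock moved in both directions. Of 25 measured genes that modify the loop (paralogues, ROR receptors, kinases, ubiquitin ligases and cofactors), 6 rose, 4 fell and 15 did not pass, with a median log2 change of 0.02 (all genes -0.02, with 6.35% higher and 10.6% lower). Csnk1e, a casein kinase that phosphorylates PER proteins, rose from 11.45 to 11.59 in non-exercise to 11.69 to 11.96 in exercise arrays, a log2 change of 0.33 ± 0.05 (SE; limma adjusted p = 0.00125). Huwe1, a ubiquitin ligase that targets REV-ERB alpha, rose by 0.28 ± 0.05 (SE; limma adjusted p = 0.00139). Sfpq, a nuclear RNA-binding protein found in PER complexes, rose by 0.24 and Arntl2, the paralogue of Arntl, by 0.39 (limma adjusted p = 0.00578 and 0.00625). For each of these 4 genes, named for their small p, every exercise value exceeded every non-exercise value. This held for 5 of the 25 genes and for 3.74% of all genes. Sfpq did not pass with arrays centred on their medians, at 0.15, nor Arntl2 without the 3 arrays, at 0.31.

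Among the genes that fell in that list, Cul4a, a ubiquitin ligase scaffold, changed by -0.30 ± 0.07 (SE; limma adjusted p = 0.00724). Ciart, a repressor of CLOCK and BMAL1 also called CHRONO, was called on 1 of its 2 probe sets, which lay between 8.04 and 8.26 in exercise and between 8.36 and 8.55 in non-exercise arrays, a log2 change of -0.30 ± 0.08 (SE; limma adjusted p = 0.0158). Its other probe set, at -0.21, changed in the same direction but did not reach the threshold (limma adjusted p = 0.101 over probe sets). The first also missed it in the table as deposited (-0.24) and without the 3 arrays (-0.29). The mean of the 2 probe sets passed, at -0.26 (limma adjusted p = 0.0295). Which of the 2 probe sets measures the gene was not checked, and without Ciart the count of 4 fallen genes is 3. The kinase gene Csnk1d (-0.12), the REV-ERB opponent Rora (-0.07) and the E-box repressors Bhlhe40 (-0.01) and Bhlhe41 (-0.07) did not pass. The other 4 called genes were Timeless (-0.29), Prkaa2 (-0.26), Usp2 (0.21) and Ddb1 (0.14), with limma adjusted p between 0.0351 and 0.0456. Timeless kept its call in 5 of the 10 fits that leave out 1 array, and the other three in 2 each. The counts of 6 and 4 were 3 and 1 without the 3 arrays. The count of 4 became 2 on leaving out array 310, 329 or 330. With arrays centred on their medians 3 genes rose, and in the table as deposited 2 fell.

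Among 15 measured genes that carry the rhythm to other pathways, 2 rose, 3 fell and 10 did not pass (median log2 change -0.04), beside 6.35% higher and 10.6% lower over all genes. Tef, a D-box activator of the same family as Dbp, was 1.38-fold lower. Its values were 10.53, 10.59, 10.78, 10.67 and 10.60 in the exercise arrays and 11.19, 11.15, 11.08, 11.20 and 10.89 in the non-exercise arrays, so the groups did not overlap. The log2 change was -0.47 ± 0.07 (SE; limma adjusted p = 0.000670) and the call held without any 1 array, without the 3 arrays (-0.54) and under each other setting tried. Hlf, the remaining activator of that family (-0.07), and Nfil3, the repressor at D-boxes (-0.04), did not pass.

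Lpin1, which encodes the lipid phosphatase lipin, changed by -0.36 ± 0.11 (SE; limma adjusted p = 0.0321), with its lowest values in exercise arrays 300 (9.62) and 301 (9.83), and by -0.61 without the 3 arrays. Leo1, a subunit of a transcription elongation complex, was the other gene to fall (-0.27). Tspan4 (0.23) and the liver glycogen synthase gene Gys2 (0.43) rose. Tspan4 did not pass with arrays centred on their medians (0.13). Without the 3 arrays Gys2 was 0.15 and Leo1 was -0.22, and neither passed. Gys2 had its highest values in arrays 306 and 309, which held hepatocyte transcripts. Lpin1 lost its call on leaving out the same 6 arrays as Dbp (300, 301, 326, 327, 329 or 330). Leo1 passed only on leaving out array 301, 326 or 331, and Gys2 only on leaving out array 301. The count of 3 fallen genes became 1 on leaving out array 300, 327, 329 or 330, and 5 with arrays centred on their medians. The count of 2 risen genes became 1 on leaving out array 300, 306, 310 or any single non-exercise array. Por was not analysed here.

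Of 15 genes that answer glucocorticoids or cAMP, signals that also act on Per1, 5 rose, 1 fell and 9 did not pass (median log2 change 0.10), again beside 6.35% and 10.6% of all genes. The metallothionein gene Mt2 rose by 0.49 ± 0.06 (SE; limma adjusted p = 0.000214), the phosphatase gene Dusp1 by 0.54 ± 0.09 (SE; limma adjusted p = 0.00126), the transcription factor gene Junb by 0.52 ± 0.10 (SE; limma adjusted p = 0.00292) and the kinase gene Sgk1 by 0.66 ± 0.14 (SE; limma adjusted p = 0.00659). These 4 genes also passed without any 1 array and without the 3 arrays. Mt1 rose by 0.19, and its call ended without the 3 arrays (0.13), with arrays centred on their medians (0.13), and on leaving out array 306, 309, 327, 329 or 330. Tsc22d3, which encodes the glucocorticoid-induced protein GILZ, was the gene that fell, by 0.32 on the log2 scale (limma adjusted p = 0.0485), and among the fits that leave out 1 array it passed without array 310 or 326 alone. The count of 1 fallen gene became 0 on leaving out array 300, 301, 309, 327, 329, 330 or 331. Fkbp5 (-0.06), another glucocorticoid target, and Fos (0.04), an early response gene, did not pass.

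**Figure D4:**
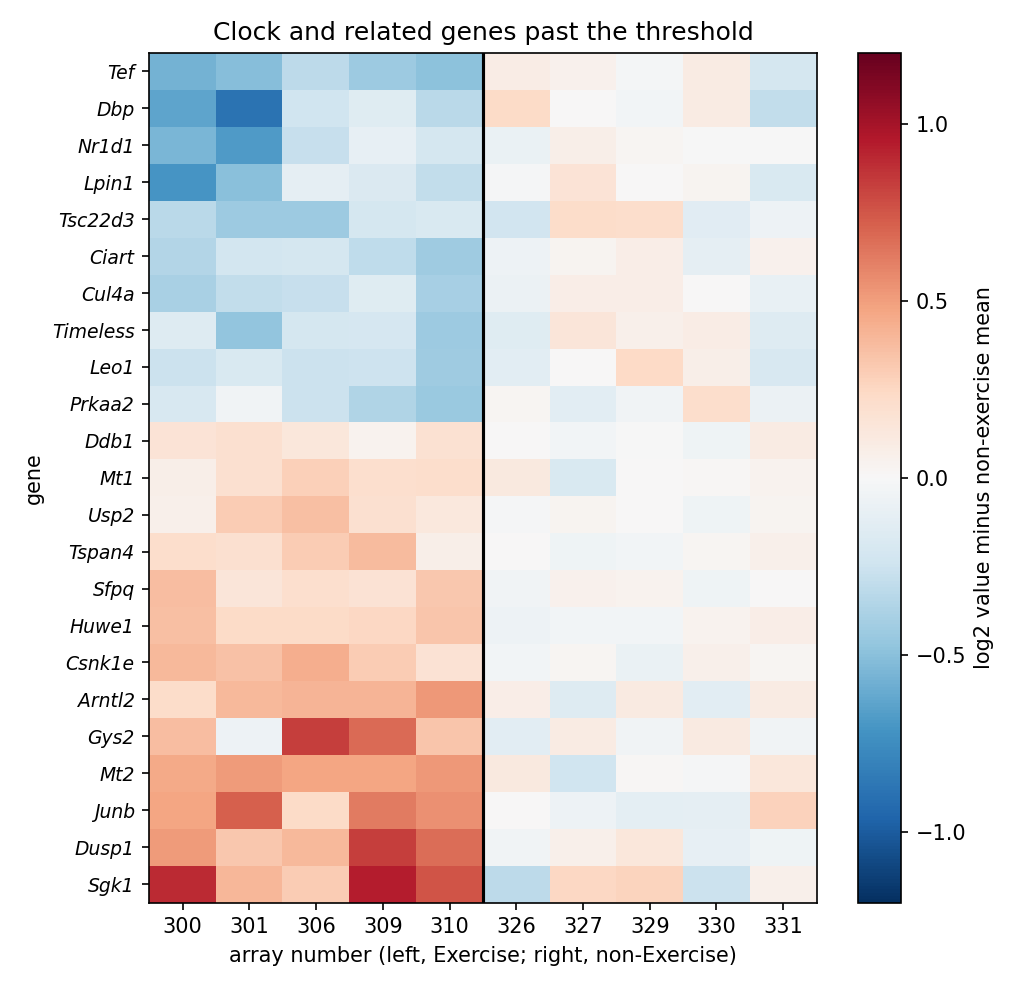
Values of the clock and related genes that passed, as log2 value minus the gene's non-exercise mean (colour), in each array (columns, exercise left of the line and non-exercise right of it), ordered by log2 change. Tef, Dbp, Nr1d1 and Lpin1 are at the top, with the darkest blue for Dbp in array 301, and Sgk1 (0.66) is at the bottom.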

How the data were processed

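Tumour RNA was measured on Affymetrix whole-transcript arrays, 1 array per sample. The deposited log2 values, 1 per probe set and array, had been summarised by the authors with PLIER, per the submitters' processing notes. They ran from 4.66 to 14.55; log2 is read from that range, and neither the log base nor any step between arrays is stated. Array medians lay between 8.70 and 8.77 in exercise and between 8.64 and 8.70 in non-exercise arrays, so the table was quantile normalized (limma 3.58.1, R 4.3.3). That step also removes this shift of the medians between the groups. Of 35556 probe sets 21789 had 1 gene symbol, 1621 had several and 12146 were not listed in the platform table; symbols were checked through Entrez identifiers against GRCm38.p6 (21698 matched, 0 changed). A gene with several probe sets was read from the one with the highest mean, without a filter on dim genes. Groups follow the titles. Genes were tested two-sided with limma (lmFit, then eBayes with trend), with Benjamini-Hochberg adjustment over 19938 genes at 0.05, and single genes by exact permutation over all splits of the arrays. Pair correlations used all 14400 orders within groups. Array number limits the precision; no scan date or batch was used here. The fit was tested on simulated data in which genes varied independently, without the differences in cell content seen between these arrays. The clock genes and the lists of related genes and markers were chosen with earlier results of these data known. Named genes are all clock genes, up to 6 called genes with the smallest p of each list, and fixed genes of the loop; genes named beyond these were chosen after their values were seen. Alternatives were other normalizations, dim-gene filter, probe set handling, variance models, array weights, thresholds and leaving out arrays. Figures used Python 3.11.15 and matplotlib 3.10.9.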

Additional observations from a re-analysis of the deposited data

How the results depend on the processing

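Results were recomputed with other normalizations, filters, probe set rules, variance models and array subsets; the arrays and their signal limit the precision. Per2, Per3, Cry1, Ciart, Arntl2, Gys2 and Tsc22d3 gave no value when only genes above the median level were used. No paired analysis was possible because the groups share no replicate numbers. The median change over all genes ranged from -0.05 (arrays centred on their medians) to 0.01 (table as deposited). Counts of clock genes lower in exercise were 0 to 2 leaving out 1 array and 0 higher; by unadjusted exact permutation p 1 was higher. Leaving out 1 array gave 4 to 5 higher and 2 to 3 lower clock regulators, 1 to 3 higher and 1 to 3 lower clock outputs, and 4 to 5 higher and 0 to 1 lower glucocorticoid and cAMP genes. Over all genes the same fits gave 858 to 1529 higher and 1435 to 2334 lower. Centring on medians gave 3 higher clock regulators, 1 higher and 5 lower outputs and 3 lower glucocorticoid and cAMP genes; the table as deposited gave 2 lower regulators and 0 lower glucocorticoid and cAMP genes. At an adjusted p of 0.10 there were 5 lower outputs and 2 lower glucocorticoid and cAMP genes, above the median level 0 of the latter (Tsc22d3 was not tested there), and without the intensity trend 1 higher output. Without exercise arrays 306, 309 and 310 there were 3 higher and 1 lower regulators. The causes were not tested. Signs turned for Cry1 in the table as deposited (0.024) and for Clock with array weights (0.00315), without exercise array 309 (0.064; range -0.072 to 0.064 leaving out 1 array) or non-exercise array 331 (0.0062), and without the 3 arrays (0.10); none of these passed. Without centring on the group means, r was 0.77 for Arntl with Nr1d1 and 0.88 for Nr1d1 with Dbp, both past the threshold, and 0.019 for Arntl with Clock, opposite in sign to the centred value; uncentred values hold the group difference. Leaving out 1 array, r ranged from 0.22 to 0.77 for Arntl with Nr1d1, 0.15 to 0.54 for Arntl with Dbp, 0.51 to 0.89 for Nr1d1 with Dbp, -0.28 to 0.37 for Per1 with Per2 and -0.31 to 0.21 for Arntl with Clock.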

Other observations

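The shift between groups in the difference of 2 related clock genes within an array is given for 3 pairs, chosen after their values were seen, as a description with no test. In each pair 1 gene did not pass (Nr1d2, Arntl and Csnk1d). The difference Nr1d1 minus Nr1d2 (log2) lay between -0.75 and -0.23 in exercise arrays and between -0.05 and 0.24 in non-exercise arrays, and the ranges did not overlap. Arntl minus Arntl2 lay between 0.87 and 0.94 in exercise and between 1.32 and 1.59 in non-exercise arrays, a mean of 0.91 ± 0.03 against 1.45 ± 0.12 (SD, n = 5 each). In this pair the exercise arrays, which varied widely in Nr1d1 and Dbp, were close to each other. Csnk1d minus Csnk1e lay between -0.69 and -0.1122 in exercise and between -0.1144 and 0.04 in non-exercise arrays, so the ranges overlapped slightly. A difference between probe sets of different genes has no meaning as a level, so only its shift between groups is described.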
